A study of Mus musculus with 8 samples.

Results

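The data followed a mouse pre-iPSC clone through 4 days of culture without vitamin C. Pre-iPSCs are partly reprogrammed cells: they have left the somatic state and grow as colonies, yet have not reached full pluripotency. The untreated course holds 4 of the 8 arrays of the study, 1 on each of days 3, 4, 5 and 6, chosen by the treatment and the day in the labels. All 4 arrays are from 1 line, named MaF pre-iPSC9P2, cultured over a feeder layer in medium made for mouse embryonic stem cells. The other 4 arrays, on the same days, are from the same line with 50 µg/ml vitamin C in the medium from day 2 onwards, and the untreated cells had none. RNA was taken after trypsin treatment and removal of feeder cells. Nothing in the labels says that each day was a culture of its own, so the scatter of these arrays may be technical. The p-values of a slope reflect how far the 4 arrays lie from a straight line over the days, which also takes in any curved course. With so few arrays the precision is low.

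A cell that becomes pluripotent gives up the programme of a fibroblast, with its collagens, contractile fibres and N-cadherin, and takes on that of an epithelium, with E-cadherin, keratins and tight junctions. The pluripotency network is switched on late, around the factors Pou5f1, Nanog, Sox2 and Esrrb. Cells that stall on this path carry parts of both programmes, and they form colonies that can grow dense within days of plating.

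Levels are given as the deposited log2 values, in which a step of 1 is a doubling, and a change is given as the slope, in log2 units per day, with limma's moderated SE. A gene is said to have risen or fallen where limma's test of the slope in the 4 untreated arrays gave a Benjamini-Hochberg adjusted p under 0.05 over 19938 genes. Of these genes 228 rose, which is 1.14%, and 228 fell, which is again 1.14%, while 3915 had an unadjusted p under 0.05. The median slope was 0.40 among the genes that rose, -0.41 among those that fell and 0.0043 among all genes. From day 3 to day 6, 174 of the rises and 179 of the falls came to at least 2-fold. Pairs of untreated arrays correlated at 0.986 to 0.994 over all genes, and the first principal component, with 61.3% of their variance, placed them in the order of the days at -23.2, -16.5, 9.51 and 30.2.

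The calls leaned most on the last array, and next on the first. Without the array of day 6, 29 of the 228 rises and 29 of the 228 falls still passed, and the whole count was 73. All 456 slopes kept their direction, which the choice of genes by their slope in these same arrays largely fixes. Without the array of day 3, 90 of the rises and 95 of the falls still passed, and without that of day 4, 152 and 156. Without the array of day 5 the count was 284, of which 133 rises and 129 falls were among the first 456. With the spread taken from all 8 arrays, 156 genes rose and 193 fell, and 145 and 180 of them were among the rises and falls above. Centring each array on its median turned the split of that fit into 130 rises and 255 falls, and that of the 456 calls into 185 and 275.

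The 15 steepest named rises joined metabolic enzymes, secreted proteins and regulators of early development. Ace, which encodes angiotensin-converting enzyme, stood at 3.85, 4.32, 5.19 and 6.41 on days 3 to 6. Both later days lay above both earlier days, and the slope was 0.86 ± 0.08 per day (limma, adjusted p = 0.0062). Here and below, such an order of the days describes the same 4 values as the slope and is no separate support for it. Igfbp2, a secreted binding protein of insulin-like growth factors, climbed through 6.93, 7.50, 8.62 and 9.36, which made it 5.38-fold higher on day 6 than on day 3 (slope 0.84 ± 0.07, limma, adjusted p = 0.00313). Its largest step was the one from day 4 to day 5.

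The carbonic anhydrase gene Car4 read 4.68, 5.82, 6.71 and 7.12, so that its steps grew smaller with each day. Trh, the precursor of thyrotropin-releasing hormone, read 7.21, 8.15, 9.21 and 9.57 and was 5.13-fold higher on day 6. A2m, which encodes the protease trap alpha-2-macroglobulin, took the opposite shape with 3.33, 3.81, 4.53 and 5.89, and the last step was the largest. The carbonyl reductase gene Cbr2 was 5.83-fold and the kallikrein gene Klk1b5 4.10-fold higher on day 6. Klk1b5 belongs to a family of close relatives, and whether its probes read 1 member alone is uncertain.

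**Figure D1:**
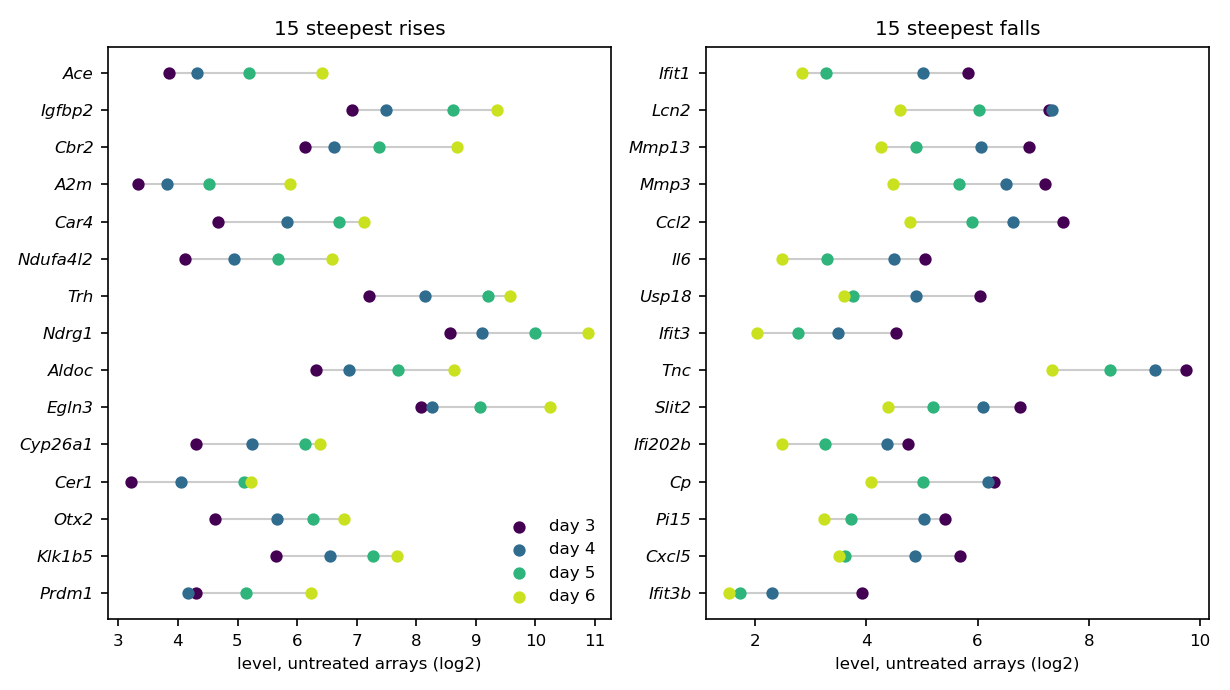
Levels (log2, x axis) of the 15 genes with the steepest rise and the 15 with the steepest fall in the 4 untreated arrays, 1 point for each day, coloured by day and joined by a grey line. The points run in the order of the days for nearly all genes, and Ifit1 has the widest span, from 5.83 on day 3 to 2.84 on day 6.

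Genes of early embryonic patterning and of primed pluripotency were among the rises. Otx2, a homeobox factor of the primed epiblast and the anterior brain, stood at 4.62, 5.66, 6.27 and 6.78 (slope 0.71 ± 0.07, limma, adjusted p = 0.00686). Cer1, a secreted inhibitor of Nodal and BMP, went from 3.21 and 4.05 to 5.11 and 5.23. Lefty1, another inhibitor of Nodal, went from 3.62 and 4.05 to 5.38 and 5.39, with its largest step between day 4 and day 5. In each of these 3 genes both later days lay above both earlier days. Cyp26a1, the enzyme that breaks down retinoic acid, was 4.23-fold and Prdm1, a repressor known from germ cell and endoderm specification, 3.79-fold higher on day 6 than on day 3.

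Of 20 measured genes of general and primed pluripotency 4 rose and 0 fell, with a median slope of 0.08. The other 2 that rose were Dnmt3b, a DNA methyltransferase of the early embryo (slope 0.32 ± 0.06), and Fgf5, a growth factor of the primed epiblast (0.38 ± 0.08). The remaining 16 did not pass, and over the whole list 15 slopes lay above 0 and 5 below. Among those 16, Pou3f1 had a slope of 0.05, Zic2 of -0.03, Foxd3 of -0.01 and Etv4 of -0.24. In the lists of germ-layer genes Gata4, with a slope of 0.38, and Cer1 were the 2 rises among 24 endoderm genes, and Gata4 was the single rise among 22 mesoderm genes. Eomes, a factor of trophoblast and mesendoderm, rose from 5.08, 5.71 and 6.08 to 6.20 and was, with Krt7, 1 of 2 rises among 16 trophoblast genes. With any 1 array left out the mesoderm list held 0 rises, and the endoderm list held 0 without the array of day 3 and 1 without any other. The trophoblast list held 1 rise without the array of day 3 or of day 5 and 0 without that of day 6. The general and primed list held 1 gene past the threshold without the array of day 3, 2 without that of day 4 or of day 5 and 3 without that of day 6.

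The naive pluripotency genes moved in part. Of 23 measured, 4 rose and 1 fell, with a median slope of 0.09, and 14 slopes lay above 0 and 9 below. Tdgf1, the Nodal co-receptor also called Cripto, stood at 8.95, 9.34, 10.21 and 10.60 and was 3.14-fold higher on day 6 (slope 0.58 ± 0.06, limma, adjusted p = 0.00869). Nanog, a transcription factor at the core of the network, stood at 5.53, 6.34, 6.40 and 6.77, with most of its rise made before day 4 (slope 0.38 ± 0.08, limma, adjusted p = 0.0472). Both later days lay above both earlier ones, with a step of 0.07 between day 4 and day 5.

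Dppa5a, an RNA-binding protein of pluripotent cells, read 6.48, 6.76, 7.32 and 7.59, and Utf1, a chromatin factor of these cells, was 2.18-fold higher on day 6. Jam2, a junctional adhesion molecule counted with this list, fell from 5.04 to 4.12. Other central factors did not pass the test. Pou5f1 stood at 12.11 on day 3 and at 12.09 on each later day (slope -0.01 ± 0.06, limma, adjusted p = 0.958). Sox2 read 5.00, 4.93, 5.22 and 5.18, and Esrrb, a nuclear receptor of naive cells, read 3.23, 3.14, 3.24 and 3.36. Zfp42, a marker of naive cells also called Rex1, read 2.96, 2.97, 4.09 and 3.56, and Sall4 had a slope of 0.03. Nr5a2 and Tbx3, both of the naive list, had slopes of -0.31 and -0.20 (adjusted p of 0.0596 and 0.196 in limma). The lower quartile of all values lay between 2.84 and 2.91 in the 4 arrays. Levels of different probe sets cannot be ranked against each other, so these values alone do not settle how far the line had been reprogrammed. The naive list held 1 gene past the threshold without the array of day 3 or of day 6 and 3 without that of day 4 or of day 5.

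**Figure D2:**
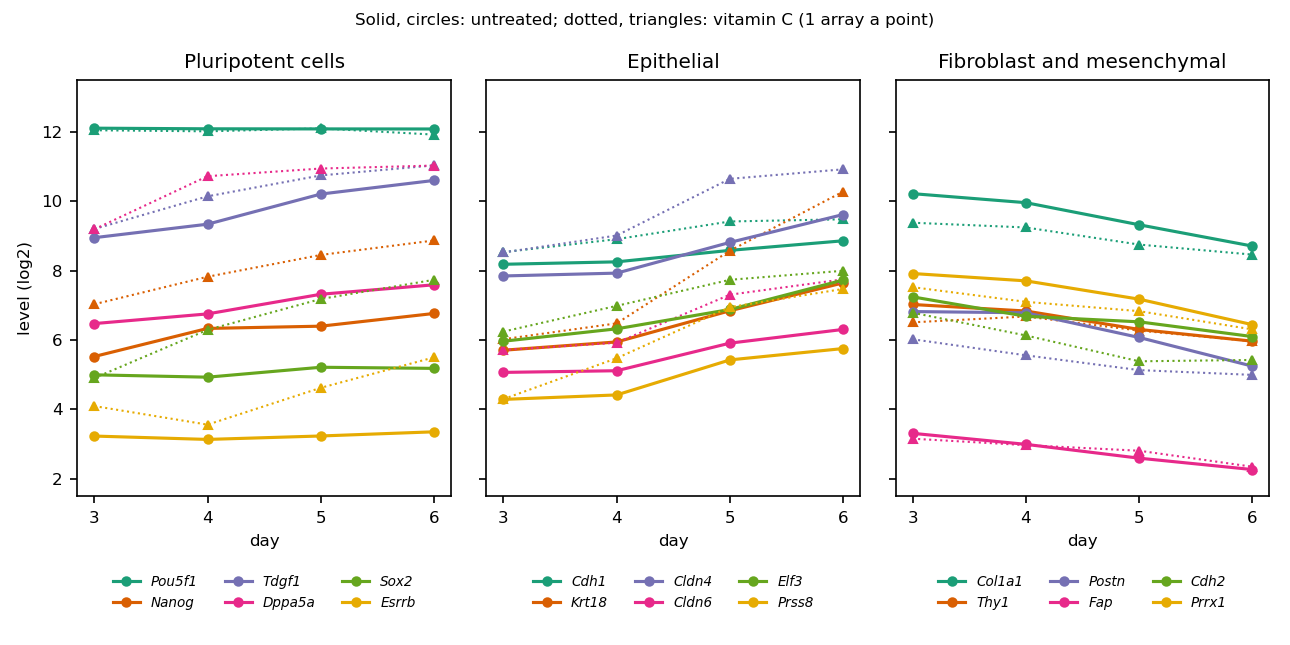
Levels (log2, y axis) by day of pluripotency genes, epithelial genes, and fibroblast and mesenchymal genes, with untreated arrays as solid lines with circles and vitamin C arrays as dotted lines with triangles, 1 array a point. Without vitamin C, Pou5f1 stays at 12.09 to 12.11, Krt18 goes from 5.71 to 7.65 and Col1a1 from 10.22 to 8.71.

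Among the rises were 8 of 33 measured epithelial genes, while 0 fell and 25 missed the threshold, and 30 had a slope above 0, against 51.6% of all genes. The median slope was 0.23. Krt18, a keratin of simple epithelia, stood at 5.71, 5.95, 6.85 and 7.65 and was 3.84-fold higher on day 6 than on day 3 (slope 0.67 ± 0.08, limma, adjusted p = 0.00889). Its values on days 5 and 6 lay above those on days 3 and 4, as did those of the tight junction gene Cldn4, at 7.85, 7.93, 8.82 and 9.62.

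The epithelial transcription factor Elf3 (slope 0.59), the membrane protease Prss8 (0.54), the tight junction gene Cldn6 (0.45), the junction adaptor Cgn (0.40) and the keratins Krt7 (0.61) and Krt19 (0.57) made up the 8. Cdh1, which encodes E-cadherin, moved from 8.19 and 8.26 to 8.59 and 8.86 without passing (slope 0.24 ± 0.06, limma, adjusted p = 0.0871). Epcam, another surface marker of epithelia, had a slope of 0.20 (adjusted p = 0.128 in limma). Of 25 keratin and cornification genes 7 rose and 0 fell, and 3 of these, Krt18, Krt19 and Krt7, are in the epithelial list too. The other 4 were Sprr1a, Krt80, Asprv1 and Ly6d, genes known from stratified epithelia, with slopes from 0.41 to 0.46. Their median slope was 0.12, and the keratins of the basal layer Krt5 and Krt14 had slopes of -0.03 and -0.12. With the day 6 array left out, the epithelial list held 0 and the keratin list 1 gene past the threshold.

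Fibroblast and mesenchymal genes were among the falls. Of 28 measured feeder and fibroblast markers 0 rose and 9 fell, with a median slope of -0.28, and of 21 mesenchymal genes 0 rose and 5 fell, with a median of -0.20. Col1a1, the main chain of type I collagen, stood at 10.22, 9.96, 9.33 and 8.71 (slope -0.52 ± 0.06, limma, adjusted p = 0.0122). Pdgfrb, a growth factor receptor of fibroblasts and pericytes, stood at 6.80, 6.38, 5.89 and 5.00 and was 3.47-fold lower on day 6 than on day 3. Both later days lay below both earlier days in these 2 genes. Col1a2, the matrix genes Postn, Lum, Dcn and Mfap5, the surface antigen Thy1 and the protease Fap were the other 7, with slopes from -0.66 (Lum) to -0.35 (Fap).

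Of the mesenchymal genes that fell, Cdh11, the cadherin of mesenchymal cells, stood at 8.36, 8.17, 7.35 and 6.59 and was 3.40-fold lower on day 6. Prrx1 (slope -0.50), Twist2 (-0.40) and Zeb2 (-0.32) encode transcription factors of the mesenchymal state, and Cdh2 (-0.36) encodes N-cadherin. Vim, the intermediate filament of these cells, did not pass, with a slope of -0.21 and an adjusted p of 0.133 in limma. Of 21 smooth muscle and contractile genes 0 rose and 5 fell, namely Myl9, Actg2, Acta2, Cald1 and Actn1. Acta2, smooth muscle actin, stood at 10.55, 10.22, 9.75 and 9.08 (slope -0.49 ± 0.06, limma, adjusted p = 0.0123). The crosslinking enzyme gene Lox fell from 8.73 and 8.64 to 7.62 and 6.75, and did not pass without the array of day 6. With the day 6 array left out, these 3 lists held 0 genes past the threshold. With the day 5 array left out, the mesenchymal and contractile lists held 3 each, and with that of day 3 left out the mesenchymal list held 3.

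The fibroblast markers read feeder cells left after their removal as well as the line itself, and in bulk RNA fewer cells of a type cannot be told apart from less RNA per cell. The summed level of the 28 markers on the linear scale was 6708, 6588, 5313 and 4204 on days 3 to 6, and 25 of the 28 had a slope below 0. All 9 that fell lay above the lower quartile of the array (2.85) on day 3, and on day 6 Lum (2.70) and Fap (2.27) lay below it (2.91). Eif2s3y, on the Y chromosome, fell with them from 4.03 and 3.88 to 2.98 and 2.77 (slope -0.47 ± 0.08, limma, adjusted p = 0.0251), and Uty, on the same chromosome, read 3.25, 3.28, 2.87 and 2.32 without passing (adjusted p = 0.069 in limma). The day 6 values of Eif2s3y and Uty lay under that array's lower quartile of 2.91 too. Xist, the RNA of the inactive X chromosome, stood between 8.39 and 8.88. These 3 genes were picked after their values were seen. The part that feeder cells left in the samples had in the falls was not tested. Of 11 blood cell markers 0 passed limma's test and 3 had an unadjusted p under 0.05, all 3 upwards, with summed levels between 360 and 485. Over all 19938 genes 1991 rose at that unadjusted level. Of 14 endothelial markers Flt1 (slope 0.46) alone rose, and their sum lay between 349 and 425. Without the array of day 6 Flt1 did not pass.

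**Figure D3:**
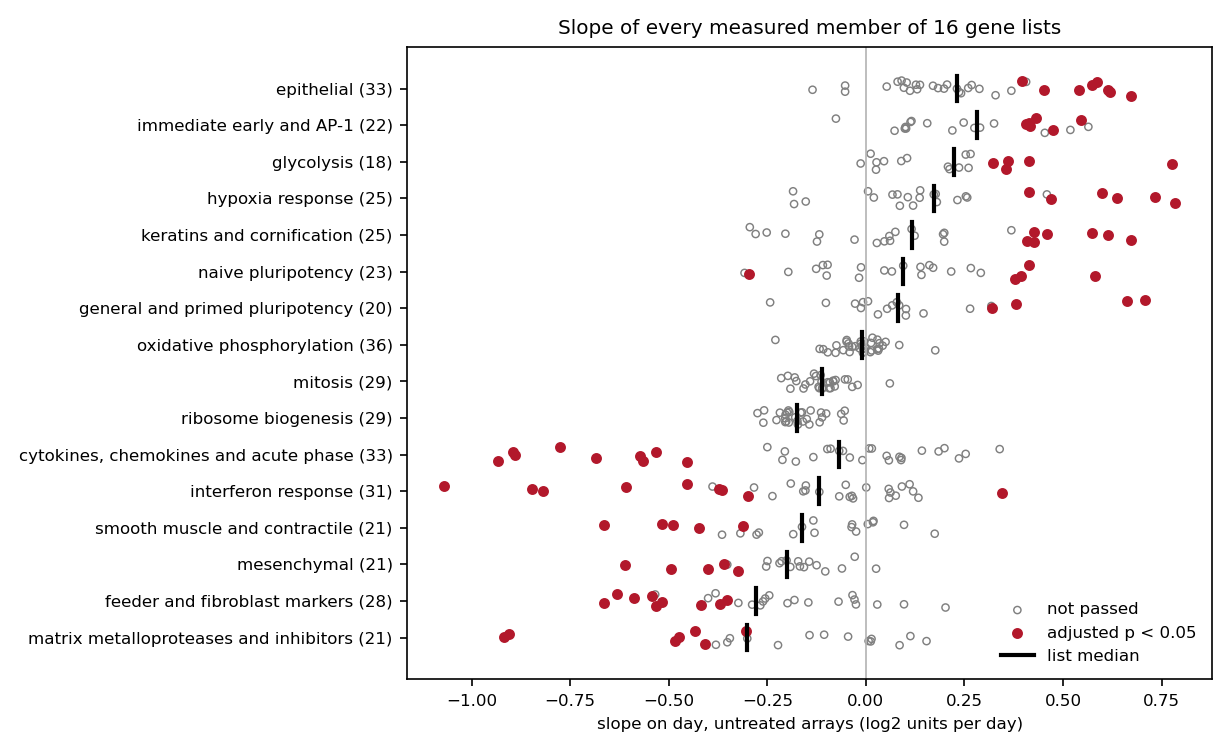
Slope on day (log2 units per day, x axis) of each measured member of 16 gene lists in the untreated arrays, with the number measured in brackets. Filled points passed an adjusted p of 0.05 and black bars are list medians, from 0.28 for immediate early genes to -0.30 for matrix metalloproteases and their inhibitors.

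Of the proteases that cut the matrix, 2 were among the steepest falls. Mmp13, a collagenase, stood at 6.93, 6.06, 4.90 and 4.26 and was 6.38-fold lower on day 6 than on day 3 (slope -0.92 ± 0.06, limma, adjusted p = 0.00298). Mmp3, which activates other metalloproteases, stood at 7.21, 6.51, 5.66 and 4.47 and was 6.67-fold lower (slope -0.91 ± 0.07, limma, adjusted p = 0.00304). Both genes fell at every step, and their later days lay below their earlier ones. Of 21 genes of this list 0 rose and 7 fell, with a median slope of -0.30.

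The other falls were Mmp10, the inhibitor Timp1, the plasminogen activators Plau and Plat, and Adam12, with slopes from -0.48 (Timp1) to -0.30 (Adam12). This list held 2 genes past the threshold without the array of day 6. Tnc, the matrix glycoprotein tenascin C, fell from 9.74 on day 3 to 7.34 on day 6, and the guidance factor Slit2 from 6.76 to 4.39. Mmp3, Mmp10 and Mmp13 lie in 1 cluster on chromosome 9, and each has the letters of an AP-1 site before its start in RefSeq's promoters (GRCm38.p6). The windows are shown because these 3 genes fell together, with the match in capitals and all bases before the start.
Mmp3, chr9:7445761-7445797, plus strand: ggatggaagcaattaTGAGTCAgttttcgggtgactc
Mmp10, chr9:7502264-7502300, plus strand: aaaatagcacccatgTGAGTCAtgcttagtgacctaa
Mmp13, chr9:7272464-7272500, plus strand: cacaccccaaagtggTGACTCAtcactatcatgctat

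The site was searched as TGANTCA in the 250 bases before each start, on both strands, and was held by 1112 of 15614 tested genes with a promoter in the table (7.12%). It was found in 17 of 165 such genes that fell (10.3%) and 12 of 177 that rose (6.78%). In the list of metalloproteases and inhibitors 5 of 14 genes with a promoter held it (35.7%), among them Mmp12 and Plaur, which did not pass the slope test. Of the 4 falls of that list with a promoter 3 held it, and Timp1 did not. A match is a description of the letters and not a measured binding site.

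Some inflammatory genes were among the steepest falls. Of 33 cytokine, chemokine and acute phase genes 0 rose and 9 fell, while the median slope of the list was -0.07 and 13 had a slope above 0. Il6, which encodes interleukin-6, stood at 5.05, 4.50, 3.30 and 2.48 and was 5.94-fold lower on day 6, a fold to be read as approximate since the day 6 value lay under that array's lower quartile of 2.91 (slope -0.89 ± 0.07, limma, adjusted p = 0.00313). Ccl2, a chemokine that draws monocytes, stood at 7.53, 6.64, 5.91 and 4.79 and was 6.71-fold lower (slope -0.90 ± 0.06). In both genes each day lay below the day before.

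Lcn2, which encodes the iron-binding acute phase protein lipocalin 2, kept 7.29 and 7.33 on days 3 and 4 and then fell to 6.03 and 4.61. The chemokines Cxcl5 (slope -0.78), Ccl7 (-0.68) and Ccl5 (-0.57), the adhesion molecule Vcam1 (-0.57), the growth factor Csf1 (-0.53) and the acute phase gene Saa3 (-0.45) completed the 9. Cxcl10, a chemokine induced by interferon, took another course with 5.54, 4.38, 4.36 and 4.87 and did not pass. With the day 6 array left out, 5 genes of the list fell.

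The steepest fall of all named genes was that of Ifit1, an antiviral protein induced by interferon. It stood at 5.83, 5.01, 3.28 and 2.84 and was 7.95-fold lower on day 6 than on day 3 (slope -1.07 ± 0.10, limma, adjusted p = 0.0062). The fold is approximate, since the day 6 value lay under that array's lower quartile of 2.91. The largest step, between day 4 and day 5, set the later days well below the earlier ones. Usp18, an inhibitor of interferon signalling, stood at 6.05, 4.89, 3.75 and 3.61, and Ifit3, of the family of Ifit1, at 4.53, 3.48, 2.76 and 2.04.

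Of 31 interferon response genes 8 fell and 1 rose, with a median slope of -0.12. The other 5 falls were Rtp4 (slope -0.61), Ifit2 (-0.45), the helicase genes Dhx58 (-0.37) and Ddx58 (-0.30), and the transcription factor Irf7 (-0.37). Irf1, a transcription factor that acts early in the response, rose from 5.97 to 6.96, while a second, dimmer probe set of it had a slope of 0.0072. The list held 4 genes past the threshold without the array of day 6 and 3 without that of day 3. Ifit3b, close to Ifit3, fell from 3.91 to 1.53, and Ifi202b, an interferon-induced DNA sensor, from 4.74 to 2.48. The day 6 values of Ifit3, Ifit3b and Ifi202b lay under that array's lower quartile of 2.91, so the sizes of these falls are approximate.

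The promoters of Ifit1, Ifit3 and Ifit3b each held 2 copies of the interferon-stimulated response element, here the letters GAAANNGAAA on either strand. Of the 5 interferon response genes that fell and have a promoter in the table, 2 held it, Ifit1 and Ifit3. The windows are shown as those of steep falls with the element, with the copies in capitals as read on the gene's strand, all before the start (RefSeq, GRCm38.p6).
Ifit1, chr19:34640770-34640828, plus strand: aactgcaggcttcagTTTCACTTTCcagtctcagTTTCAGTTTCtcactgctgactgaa
Ifit3, chr19:34583358-34583431, plus strand: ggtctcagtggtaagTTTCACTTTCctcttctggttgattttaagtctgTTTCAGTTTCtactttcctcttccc
Ifit3b, chr19:34607754-34607827, plus strand: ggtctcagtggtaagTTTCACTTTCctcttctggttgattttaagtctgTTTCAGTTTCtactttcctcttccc

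The windows of Ifit3 and Ifit3b are the same letter for letter, and whether the probes of these close relatives read 1 gene alone is uncertain. The element was held by 531 of 15614 tested genes with a promoter (3.40%), by 8 of 22 interferon response genes (36.4%), by 15 of 165 genes that fell (9.09%) and by 8 of 177 that rose (4.52%).

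Some genes of the response to low oxygen were among the rises. Ndrg1, a stress gene induced by hypoxia, stood at 8.56, 9.10, 9.99 and 10.88 and was 5.00-fold higher on day 6 than on day 3 (slope 0.79 ± 0.06, limma, adjusted p = 0.00332). Bnip3, a mitophagy receptor, stood at 7.11, 7.76, 8.42 and 9.01 (slope 0.64 ± 0.06, limma, adjusted p = 0.0045), and its second probe set had a slope of 0.43. Egln3, an oxygen-sensing prolyl hydroxylase, kept 8.07 and 8.26 on days 3 and 4 and then went to 9.06 and 10.25. In all 3 both later days lay above both earlier days.

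Of 25 genes of the list 6 rose and 0 fell, with a median slope of 0.17. The other 3 were Ankrd37 (slope 0.60), Ddit4, an inhibitor of mTOR signalling (0.47), and the glucose transporter Slc2a1 (0.41). Vegfa, the vascular growth factor, and Car9, a carbonic anhydrase, had slopes of 0.11 and 0.14 and did not pass. Ndufa4l2, a mitochondrial gene known to be induced by hypoxia and outside the list, stood at 4.11, 4.95, 5.69 and 6.59 (slope 0.82 ± 0.06, limma, adjusted p = 0.00298). This list held 2 genes past the threshold without the array of day 6 and 6 without any other 1 array.

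All 5 of the 6 risen genes that have a promoter in the table held the core of the hypoxia response element, the letters ACGTG on either strand. The core was held by 15 of 21 genes of the list (71.4%), by 3266 of 15614 tested genes (20.9%) and by 37 of 177 genes that rose (20.9%). Windows of 3 of them are shown, with matches in capitals and all bases before the start (RefSeq, GRCm38.p6).
Bnip3, chr7:138909594-138909629, minus strand: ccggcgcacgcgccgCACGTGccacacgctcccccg
Egln3, chr12:54204084-54204118, minus strand: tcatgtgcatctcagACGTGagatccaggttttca
Slc2a1, chr4:119108694-119108728, plus strand: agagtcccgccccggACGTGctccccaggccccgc

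In Bnip3 the capitals are 2 overlapping matches, 1 on each strand.

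Of 18 measured glycolysis genes 5 rose, 0 fell and 13 did not pass, while 17 had a slope above 0 and the median was 0.22. Aldoc, an aldolase, stood at 6.32, 6.86, 7.69 and 8.63 and was 4.96-fold higher on day 6 (slope 0.78 ± 0.06, limma, adjusted p = 0.00376). The glucose transporters Slc2a1 (2.25-fold) and Slc2a3 (2.08-fold), the lactate exporter Slc16a3 (1.98-fold) and the phosphofructokinase Pfkl (1.84-fold) were the other 4, with Slc2a1 counted in both lists. Slc2a1 and Slc2a3 are also carriers of oxidised vitamin C and were the 2 rises among 8 genes of vitamin C transport and synthesis, a list that held 1 rise without the array of day 3 or of day 4 and 0 without that of day 5 or of day 6. The glycolysis list held 2, 3, 1 and 1 genes past the threshold with the array of day 3, 4, 5 or 6 left out. Of 36 oxidative phosphorylation genes 0 rose and 0 fell in limma's test, with 1 unadjusted p under 0.05 in each direction and a median slope of -0.0093.

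Immediate early genes, which cells switch on within minutes of a stimulus, had the highest median slope of the lists described here, at 0.28. Of 22 measured 6 rose, 0 fell and 21 had a slope above 0. Jun, a subunit of the AP-1 factor, stood at 8.28, 8.73, 9.31 and 9.91 (slope 0.55 ± 0.06, limma, adjusted p = 0.00686). Its partner Fos stood at 8.32 and 8.37 and then at 9.21 and 9.42. Both later days lay above both earlier days in these 2 genes. Egr1 (slope 0.41), the orphan receptor Nr4a1 (0.43) and the phosphatases Dusp1 (0.47) and Dusp5 (0.41) completed the 6. After leaving out the array of day 6, 0 genes of the list passed.

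Genes of growth and division had small slopes below 0. All 29 measured genes of ribosome biogenesis had a slope below 0, with a median of -0.17 and a list mean of 8.35, 8.25, 8.06 and 7.85 on days 3 to 6. Of all genes 51.6% had a slope above 0. None of the 29 passed limma's test after adjustment, and 21 had an unadjusted p under 0.05. Over all 19938 genes 1924 fell at that unadjusted level. With the trend and robust options of limma's eBayes 18 of the 29 fell, and 805 of all 19938 genes did. The lowest slope was that of Tsr1, a factor of small subunit assembly, at -0.28 (adjusted p = 0.0624 in limma). Of 29 mitosis genes 0 passed in limma, 7 had an unadjusted p under 0.05 and 28 had a slope below 0, with a median of -0.11. Of 31 DNA replication genes the cyclin Ccne1 alone fell, from 8.54 to 7.53, and the median was -0.11. This list held 0 falls with any 1 array left out and 5 with the trend and robust options. Among 28 genes of the ATF4 and amino acid response 3 fell, namely the transporters Slc7a11 (slope -0.55) and Slc7a5 (-0.31) and the folate enzyme Mthfd2 (-0.31). Slc7a11 and Nqo1, a quinone reductase, were the 2 falls among 27 antioxidant genes. With any 1 array left out, 1 gene of each of these last 2 lists fell, and 1 of the ATF4 list rose without the array of day 3.

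The steps between days were not equal. The genes that rose had median steps of 0.28, 0.47 and 0.43 from day 3 to 4, 4 to 5 and 5 to 6, and those that fell had -0.27, -0.48 and -0.44. Over all 19938 genes, at least 2-fold rises and falls were 25 (0.125%) and 26 (0.130%) at the first step, 37 (0.186%) and 42 (0.211%) at the second and 30 (0.150%) and 26 (0.130%) at the third. A single step has 1 array on each side and no replicate, so these are values with no test.

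The largest first steps up were those of H2bc9, a histone gene, from 4.21 to 5.62, Mir302c, a microRNA of pluripotent cells, from 2.44 to 3.82, and Cyp2d40, a cytochrome P450 gene, from 2.89 to 4.27, and all 3 were lower on days 5 and 6 than on day 4. From day 4 to day 5 the largest steps up were those of Hamp (1.88 to 3.31), the precursor of hepcidin, Lefty1 and Vpreb1 (3.20 to 4.53). From day 5 to day 6 they were Egr2 (5.93 to 7.34), an immediate early factor, Serpinb1a (3.48 to 4.90) and A2m. The largest steps down were those of Ifit3b, Krt6a and Mir542 at the first step, Ifit1, Mir19b-1 and Snord87 at the second and Lcn2, Dcn and Pigyl at the third. Genes with a peak on days 4 and 5 were H2bc9, Apof, Tmem81 and Tomm5, and those with a trough were H2aw, C3ar1, Foxd2 and Cxcl10. None of these 8 passed the slope test.

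The contrast of days 5 and 6 with days 3 and 4 uses the same 4 arrays and gave 0 genes past the threshold in limma (0%), with a smallest adjusted p of 0.0914 and 3350 genes at an unadjusted p under 0.05. With the trend and robust options of limma's eBayes 237 passed, and with the array of day 5 or of day 4 left out 480 and 31 did. Among all genes, both later arrays lay above both earlier ones in 25.7% and below them in 24.6%. This held for 227 of the 228 rises and for all 228 falls, which the choice of genes by their slope largely fixes.

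**Figure D4:**
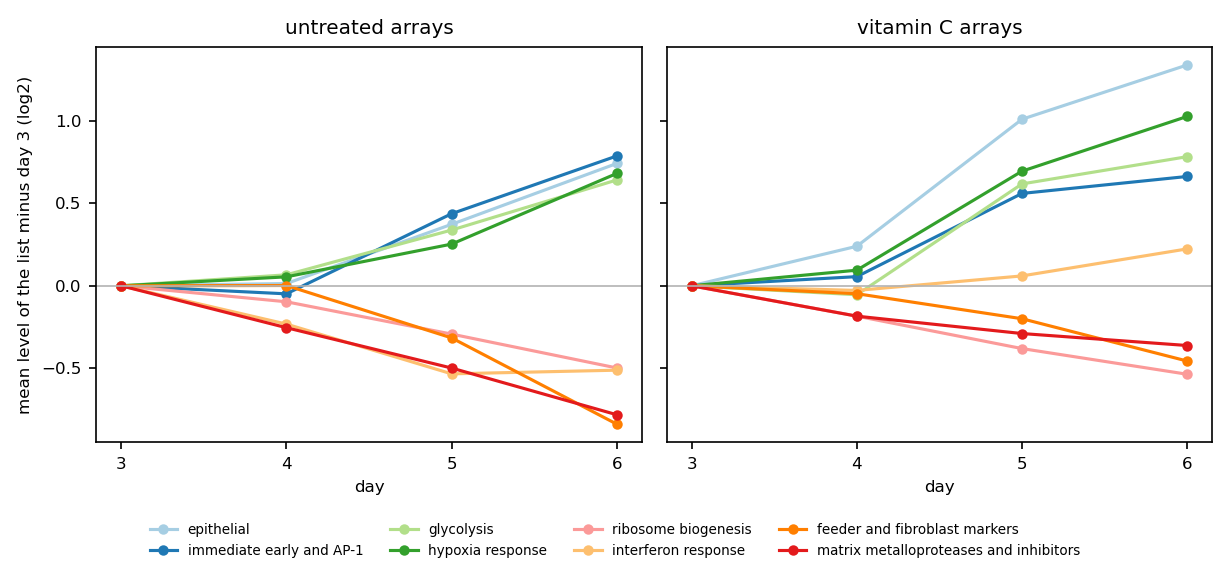
Mean level of 8 gene lists minus its value on day 3 (log2, y axis) by day, in the untreated arrays (left) and the vitamin C arrays (right), 1 array a point. In untreated cells the mean of the ribosome biogenesis list goes from 8.35 to 7.85, and the curves of the epithelial, hypoxia and glycolysis lists lie above 0 on days 5 and 6.

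The arrays with vitamin C took no part in the slope test that chose these genes, and they give the same measure in other samples. These samples are not fully independent, since each gene's probe set was picked by its mean over the arrays of both courses. Both courses also share their days. Arrays of the same day deviated together from their group means, with correlations of 0.371, 0.18, 0.125 and 0.475 on days 3 to 6. What part a shared day had in the shares below was not tested. Of the 228 genes that rose without vitamin C, 219 (96.1%) had a slope above 0 in the vitamin C arrays, where 42.9% of all genes did, and 135 of them passed limma's test there. Of the 228 that fell, 204 (89.5%) had a slope below 0 there, where 57.1% of all genes did, and 57 passed. Over all genes 3.12% rose and 1.29% fell in those arrays. These were 622 rises and 257 falls, and without the vitamin C array of day 6 there were 133 and 19. The median slope with vitamin C was 0.47 for the genes that rose and -0.23 for those that fell.

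The epithelial list had a median slope of 0.23 without and 0.40 with vitamin C, and the interferon list had -0.12 without and 0.07 with it. Ifit1 read 4.03, 3.39, 3.63 and 3.15 with vitamin C, and its difference of slopes had an adjusted p of 0.097 in limma. These pairs of medians have no test of their difference.

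**Figure D5:**
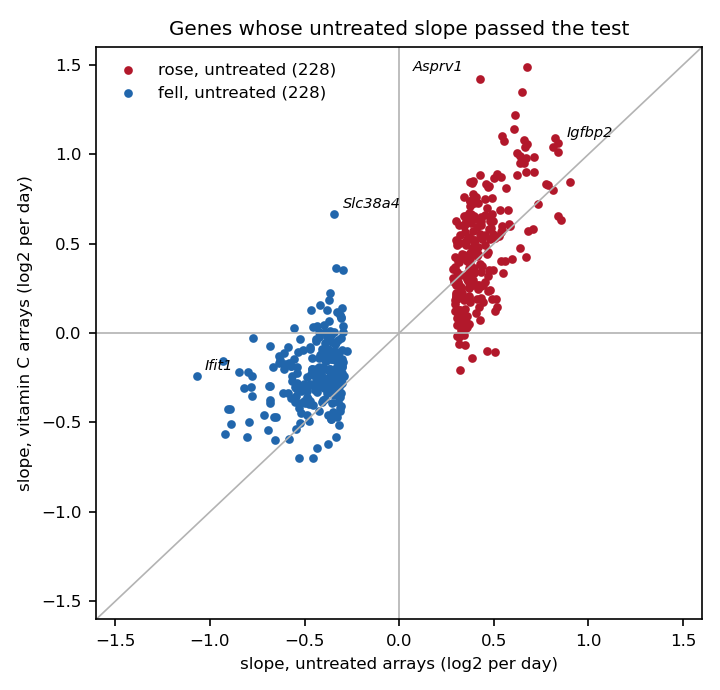
Slope on day in the vitamin C arrays (y axis) against that in the untreated arrays (x axis), both in log2 units per day, for the 456 genes whose untreated slope passed the test, with the line of equal slopes. The 219 rises and 204 falls that kept their direction lie to the upper right and the lower left of the origin, and Slc38a4 lies alone near 0.66 on the y axis among the falls.

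A difference of slopes between the 2 courses passed limma's test in 13 of 19938 genes (0.0652%), in each with the higher slope under vitamin C, and 2244 had an unadjusted p under 0.05. Slc38a4, an imprinted amino acid transporter, fell without vitamin C, from 5.37 and 5.24 to 4.68 and 4.42, and stood at 5.07, 5.14, 5.99 and 7.01 with it (difference 1.01 ± 0.13, limma, adjusted p = 0.0287). Asprv1, a protease of the cornified skin layer, rose in both courses, with slopes of 0.43 without and 1.42 with vitamin C (difference 0.99 ± 0.12, limma, adjusted p = 0.0229). These 2 were among the 456 genes above. Sox2 had slopes of 0.08 and 0.94 (difference 0.85 ± 0.12, limma, adjusted p = 0.0391). The vitamin C transporter Slc23a1 stood between 3.70 and 4.04 without vitamin C and went from 3.66 to 6.80 with it (difference 1.11 ± 0.10, limma, adjusted p = 0.0127). When both arrays of any 1 day were left out, 0 genes passed this test, and with day as a block that pairs the 2 arrays of a day 20 did, 10 of them among the 13.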

How the data were processed

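The authors deposited log2 values for 28853 probe sets of Affymetrix whole-transcript arrays, for which the submitters' processing notes name RMA and Partek. Their versions and the genome build were not given in the sources used here. A log2 scale was inferred from the range of the deposited values (0.765 to 13.8). Per the labels' protocols, 100 ng of total RNA extracted with Trizol were labelled for each array. Array medians ran from 4.33 to 4.38 in the untreated arrays.

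Of the probe sets, 21789 had 1 gene symbol in the platform annotation, 1621 had several and 5443 were not listed. Each of 19938 genes was read from its brightest probe set (highest mean of 8 arrays), and 999 had more than 1. RefSeq tables (GRCm38.p6) held 21698 of the 21789 and gave chromosomes and promoters, and 15614 tested genes had a promoter. Gene lists (49 lists, 1164 entries, 1067 matched by symbol or by a synonym) and the genes to name were chosen with earlier results of these data known.

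Slopes on day were fitted with limma 3.58.1 in R 4.3.3 (lmFit, eBayes, two-sided, Benjamini-Hochberg adjustment over all genes), with 2 residual and 5.95 prior degrees of freedom. Named were the 15 steepest rises and falls that passed, the 3 largest changes up and down at each step, the 4 clearest peaks and troughs, the 5 largest differences of slopes, in each list the 4 members of lowest p, list members that passed, and the cell type markers. Other genes were chosen after their values were seen. Among them are Vegfa, Car9, Vim, Krt5, Krt14, Pou3f1, Zic2, Foxd3, Nr5a2 and Tbx3, beside which the text does not say so. Predicted genes and clone names (8 of the 456 that passed) were counted and not named. The fit was checked on simulated data with known slopes. Alternatives are given further below, and the slope in the vitamin C arrays alone was added after seeing the data. The days in the labels are shared by both courses, and same-day arrays deviated together from their group means (correlations of 0.371, 0.18, 0.125 and 0.475 on days 3 to 6), so a fit with day as a block was run for the difference of slopes. Promoters and plots were made in Python 3.11.15 (pandas 2.3.3, matplotlib 3.10.9).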

Additional observations from a re-analysis of the deposited data

Results flagged for a closer look

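Among 261 named genes, 6 had 1 untreated array far from the other 3, by Dixon's ratio of the gap to the nearest array over the range, a flag that chance gives in about 1 of 20 groups. The 4 arrays are also different days, so a gap can be a change on 1 day. None of the 6 passed the slope test. The share of the range was 0.988 for Csf1r (high on day 6), 0.942 for Slc25a31 (high on day 3), 0.881 for Fut4 (low on day 5), 0.857 for Acacb (low on day 3), 0.849 for Serpinb1a (high on day 6, at 4.90 against 3.23 to 3.48 before) and 0.837 for Slc39a8 (low on day 3).

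The test of a difference of slopes between the courses singled out 6 named genes, each with the higher slope under vitamin C: Slc23a1 (1.11), Plac1 (1.08), Slc38a4 (1.01), Asprv1 (0.992), the adhesion receptor gene Adgrl2 (0.929) and Sox2 (0.854), all in log2 units per day. Plac1, a placental gene, went from 2.95 to 2.42 without and from 2.19 to 5.14 with vitamin C.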

How the results depend on the processing

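The number of genes past the threshold depended on the settings. For the untreated slope (456 genes) it was 1080 without dim genes (mean below the median of all genes), 1367 with the trend and robust options of eBayes, 1072 and 54 at adjusted p under 0.1 and 0.01, and 73 to 330 with 1 array left out. For days 5 and 6 against 3 and 4 (0 genes) it was 21 without dim genes, 237 with trend and robust options, 81 under 0.1, and 0 to 480 with 1 array left out, the highest without day 5. With the spread from all 8 arrays (349 genes) it was 670 without dim genes, 782 with trend and robust options, 773 under 0.1, 88 under 0.01, and 8 to 222 with 1 array left out. Centring on array medians turned the 156 rises and 193 falls of that fit into 130 and 255. For the difference of slopes (13 genes) it was 21 after quantile normalization, 28 without dim genes, 80 with trend and robust options, 42 under 0.1, 0 under 0.01, 0 without both arrays of any 1 day, and 20 with day as a replicate block. For the slope in the vitamin C arrays alone (879 genes) it was 1393 without dim genes, 1684 and 154 under 0.1 and 0.01, and 152 without its day 6 array. The other settings stayed within 1.5 times the reported count. Of 120 named genes that passed, 113 to 118 passed under centring, quantile normalization or averaged probe sets. Without day 3, 71 of them passed, and without day 6, 36 did. There were 0 reversals in any setting run, which the choice of these genes by their slope largely fixes. Days are not replicates, and with 1 array a day a change with time cannot be told apart from a difference between arrays.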

Other observations

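Of the 456 genes that passed, 351 were in none of the lists. The genes named under this heading were picked after their values were seen. Several that rose are known from the skin barrier and other stratified epithelia: Cdsn (5.72, 5.76, 6.61 and 7.30 on days 3 to 6), which encodes corneodesmosin, Scel (3.68-fold higher on day 6 than on day 3), Alox12b (5.91 to 7.44), a lipoxygenase of the barrier, the protease Klk7 (3.42-fold) and the transcription factors Grhl3 (6.64 to 7.91) and Barx2 (4.24 to 5.72). In the keratin and cornification list, 7 of 25 genes rose and 18 did not pass. Among those 18 were Lor, Ivl, Krt10 and Krt1, with slopes of 0.06, 0.12, 0.06 and -0.12. The sodium channel subunit Scnn1a was 4.08-fold higher on day 6 than on day 3. Of genes whose products carry lipids, 4 that rose were Apoe at 6.46, 6.64, 7.76 and 8.31, Apoc1 from 2.81 to 4.24, Pltp from 7.29 to 8.95 and Clu from 6.23 to 7.52, while Apoa1, Apoa2 and Apob did not pass (slopes of -0.02, -0.10 and 0.02). Over the genes of this paragraph that rose, adjusted p-values in limma ran from 0.00686 (Scnn1a) to 0.0337 (Apoc1).

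Among the falls outside the lists were the matrix genes Vcan (7.14 to 5.47), Thbs1 (11.15 to 9.87) and Col12a1 (6.98 to 5.46), the fibroblast growth factor Fgf7 (7.39 to 5.55), the prostaglandin synthase Ptges (6.64 to 4.86), the sterol enzyme Ch25h (5.57 to 3.45) and the receptor Tlr4 (3.99 to 2.44). The day 6 value of Tlr4 lay under that array's lower quartile of 2.91. Penk, which encodes the enkephalin precursor, rose from 8.02 to 9.43 without vitamin C and had a slope of -0.10 with it, and the difference of slopes had an adjusted p of 0.093 in limma. These genes were picked after their values were seen.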
